A study of Mus musculus with 21 samples.

Results

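The miR-132 and miR-212 cluster comprises 4 mature miRNAs, miR-132-3p, miR-132-5p, miR-212-3p, and miR-212-5p, which are cut from 2 hairpins of a single locus. The members were taken by name from the deposited count tables, and all 4 were found in both cohorts, among 1909 listed miRNA names in the virgin cohort (1388 with a count) and 1841 in the breeding trial cohort (743 with a count). The cluster is transcribed under the control of CREB, a transcription factor that responds to calcium and cAMP signaling, and it is known as an activity-induced miRNA cluster in neurons. In gonadotropes, the pituitary cells that secrete LH and FSH, it is known to be induced by gonadotropin-releasing hormone (GnRH). Each hairpin yields a 5p and a 3p strand, of which the guide strand is the one that mainly enters Argonaute and the passenger strand is the other, and the seed near the 5′ end of the guide selects the mRNA targets.

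Small-RNA-seq counted the miRNA reads of pituitaries from female C57BL/6J mice of 3 genotypes, to profile miRNAs when *Zeb1*, which encodes a transcriptional repressor, can no longer be silenced by miR-200a/b. WT mice were compared with mice heterozygous (Zeb1_200H) or homozygous (Zeb1_200M) for a knock-in allele of *Zeb1* whose miR-200a/b sites are mutated in all cells, bred from 2 independent ES cell clones. The virgin cohort held 3 WT, 4 Zeb1_200H, and 4 Zeb1_200M mice aged 8 to 12 weeks, and the breeding trial cohort held 4 WT, 3 Zeb1_200H, and 3 Zeb1_200M mice aged 28 to 36 weeks. The breeding trial mice had been paired with WT males, and the paper reports fewer litters for Zeb1_200M females. The labels do not give the litters of a mouse, so litter history and genotype cannot be told apart in that cohort. Mice were staged for proestrus, each library came from a different mouse, and the labels do not give the clone of a library. No group was treated with GnRH, so induction of the cluster was not measured here.

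Counted reads per virgin library ranged from 3816917 to 10806313 in WT, from 8551806 to 10266419 in Zeb1_200H, and from 8502878 to 10515664 in Zeb1_200M. The breeding trial libraries were shallower, with 84093 to 191650 reads in WT, 60037 to 131324 in Zeb1_200H, and 87665 to 124190 in Zeb1_200M. Levels are given in CPM, each count scaled to the counted miRNA reads of its library, with the SD over mice, and they are not compared between cohorts, which were matched to different miRNA dictionaries and sequenced on different instruments. Exact Clopper-Pearson 95% intervals of a level cover counting error only. Levels of different miRNAs in a library also differ by the efficiency with which each was ligated to adapters. In whole pituitaries, fewer cells of a type and less RNA per cell cannot be told apart.

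WT replicate 1 of the virgin cohort stood apart from the other virgin libraries. It had the lowest total, 3816917 reads, and a TMM factor (a library's scaling factor in edgeR) of 0.616, against 0.943 to 1.12 in the other 10 libraries. The tests of the cluster against virgin WT are therefore given with and without it.

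The 4 sequences are shown because 2 strands share a seed and each member must be told apart by its first bases. They are the mature mouse sequences of RefSeq (GRCm38.p6), which held all 4 members, written 5′ to 3′ with the seed, bases 2 to 8, in capitals.

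miR-132-3p: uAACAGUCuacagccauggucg
miR-212-3p: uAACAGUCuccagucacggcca
miR-132-5p: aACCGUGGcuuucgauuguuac
miR-212-5p: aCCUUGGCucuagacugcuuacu

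The seed AACAGUC of miR-132-3p is also that of miR-212-3p and of no other reference mature miRNA, so both 3p strands belong to 1 seed family. Counted from 1 at the 5′ end, miR-212-3p differs from miR-132-3p by A10C, C14U, U17C, U20C, and G22A, that is at 5 of 22 positions, all outside the seed. The seeds of miR-132-5p and miR-212-5p were each found in 1 reference miRNA, and the 5p strands differ from each other at 13 of 22 positions. Reads were assigned by their first 19 bases (virgin) or 18 bases (breeding trial), and 3 of the differences between the 3p strands fall within that stretch in either case. The first 18 bases of each member matched no other reference mature miRNA.

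Both hairpins lie on the plus strand of chromosome 11 in GRCm38.p6. *Mir212* (ENSMUSG00000065590) spans 75173388 to 75173478 and *Mir132* (ENSMUSG00000065537) spans 75173682 to 75173747, with 203 bases between them. Both fall within the noncoding gene *1700016P03Rik* (ENSMUSG00000085609, 75172560 to 75177633), and the annotation places neither in an exon of it. Within 500 kb, *Mir22*, 289968 bases from *Mir132*, is the one other hairpin with an abundant strand. MiR-22-3p averaged 10118 CPM over virgin libraries and 13941 CPM over breeding trial libraries, and edgeR called neither it nor miR-22-5p in any of the 6 comparisons between genotypes.

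MiR-132-3p, the guide strand of its hairpin, was the most abundant member in each of the 21 libraries. By mean CPM it ranked 34th of the 1388 miRNAs counted in virgin mice and 19th of the 743 counted in mice of the breeding trial. MiR-212-3p, the guide strand of the second hairpin, followed at ranks 80 and 66. MiR-212-5p held ranks 184 and 141, and miR-132-5p, the passenger strand of the most abundant member, held ranks 201 and 213.

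**Figure D1:**
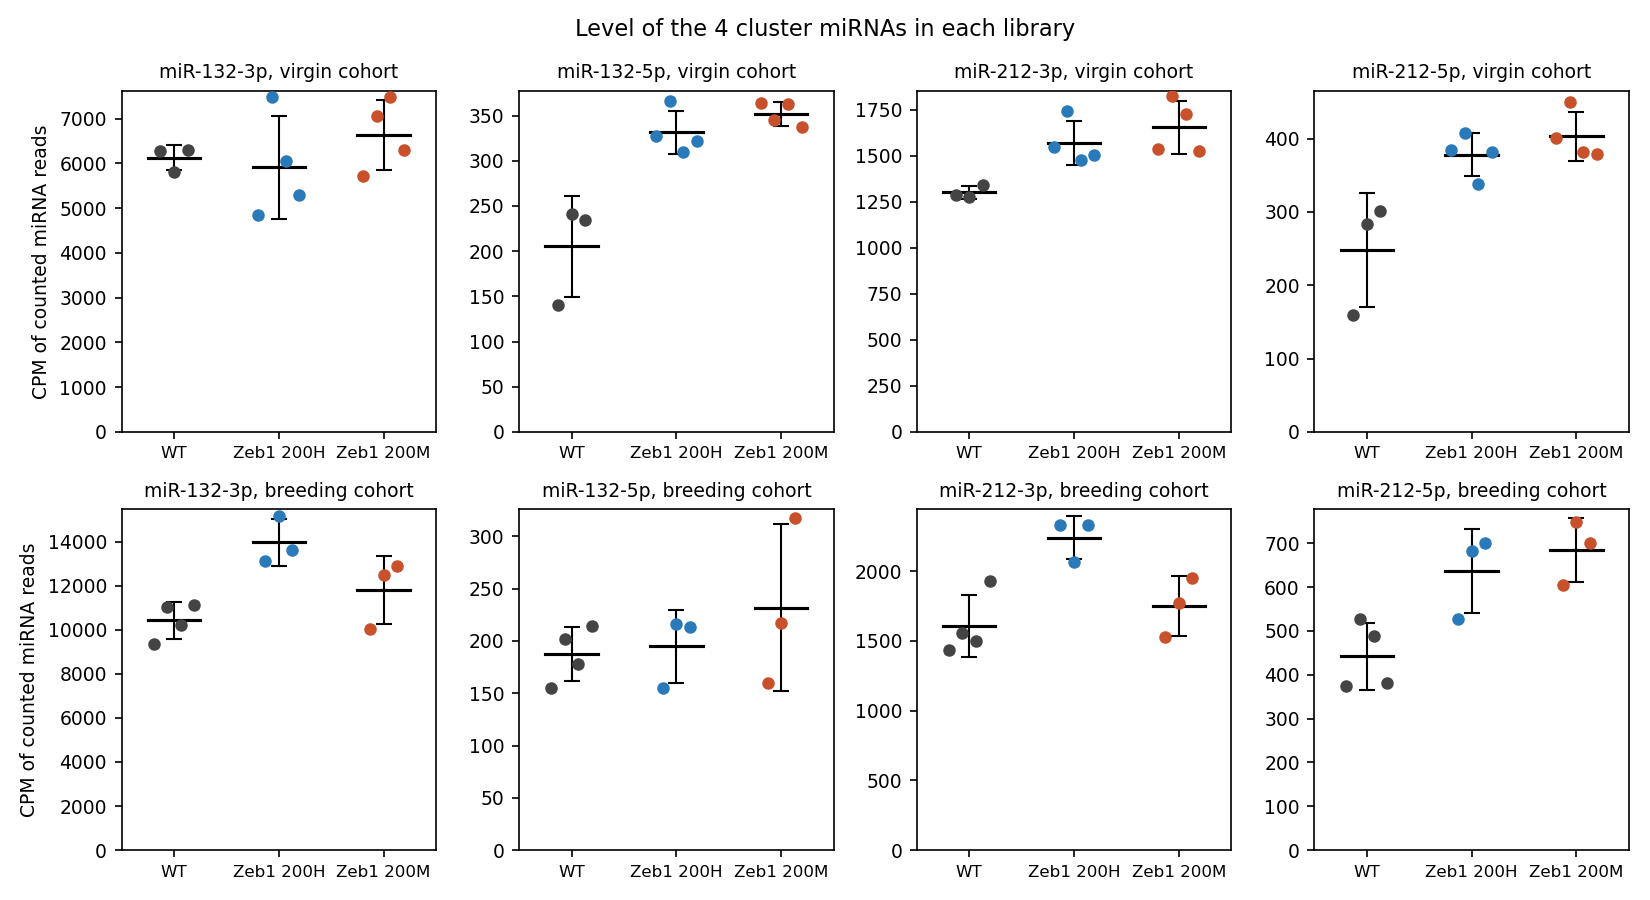
CPM of each cluster miRNA (vertical axis, starting at 0) in each library (points) of 3 genotypes and 2 cohorts, with the group mean (line) and SD (bars). In the virgin cohort, the points of both mutants lie above the WT points for miR-132-5p, miR-212-3p, and miR-212-5p, and overlap them for miR-132-3p.

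In virgin WT pituitary, miR-132-3p had 6276, 5809, and 6303 CPM in replicates 1, 2, and 4. In Zeb1_200H replicates 1 to 4 it had 4855, 7484, 6045, and 5288 CPM. In Zeb1_200M replicates 1 to 4 it had 5726, 7072, 7474, and 6295 CPM. In CPM, the WT libraries lay close together, both mutant groups spread around them, and all groups overlapped. TMM factors were 0.616 for WT replicate 1 and 0.943 and 0.980 for replicates 2 and 4. After TMM scaling, WT replicate 1 therefore lies above the other WT libraries. The means were 6129 ± 278 CPM in WT (SD, n = 3), 5918 ± 1154 CPM in Zeb1_200H (SD, n = 4), and 6642 ± 782 CPM in Zeb1_200M (SD, n = 4), so the differences between them were smaller than the spread within the mutants.

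MiR-212-3p, which shares the seed of miR-132-3p, behaved more evenly in CPM. Its CPM was 1287, 1276, and 1340 in WT replicates 1, 2, and 4. It was 1549.7, 1744, 1477, and 1506 CPM in Zeb1_200H, and 1537, 1824, 1726, and 1528 CPM in Zeb1_200M. Every mutant library lay above every WT library, and the mutant groups overlapped each other. Means were 1301 ± 34.0 CPM in WT (SD, n = 3), 1569 ± 120 CPM in Zeb1_200H (SD, n = 4), and 1654 ± 146 CPM in Zeb1_200M (SD, n = 4). Without WT replicate 1, the WT means of miR-132-3p and miR-212-3p were 6056 and 1308 CPM.

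Among the 5p strands, miR-132-5p had 140 CPM in WT replicate 1, and 241 and 234 CPM in WT replicates 2 and 4. It had 328, 366, 310.2, and 322 CPM in Zeb1_200H, and 364, 345, 363, and 337 CPM in Zeb1_200M. WT replicate 1 was the lowest library, and again no mutant library overlapped WT. Means were 205 ± 56.2 CPM in WT (SD, n = 3), 331 ± 24.2 CPM in Zeb1_200H (SD, n = 4), and 352 ± 13.2 CPM in Zeb1_200M (SD, n = 4). The WT mean was 238 CPM without WT replicate 1.

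MiR-212-5p, the second 5p strand, had 159 CPM in WT replicate 1, and 283 and 302 CPM in WT replicates 2 and 4. It had 384, 407, 337, and 382 CPM in Zeb1_200H, and 401, 450.3, 382, and 379 CPM in Zeb1_200M. The order was that of miR-132-5p, with WT replicate 1 lowest and both mutants above WT. Means were 248 ± 77.7 CPM in WT (SD, n = 3), 378 ± 29.2 CPM in Zeb1_200H (SD, n = 4), and 403 ± 33.0 CPM in Zeb1_200M (SD, n = 4). The WT mean was 292 CPM without that library. In this cohort the 5p strands were close in level, with a ratio of miR-132-5p to miR-212-5p of 0.837 ± 0.0551 in WT (SD, n = 3), 0.878 ± 0.0369 in Zeb1_200H (SD, n = 4), and 0.878 ± 0.0794 in Zeb1_200M (SD, n = 4).

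These CPM ranges did not overlap between Zeb1_200M and WT for 3 of 4 members, miR-132-5p, miR-212-3p, and miR-212-5p, whereas 35.1% of all miRNAs tested in that comparison were separated. The same 3 of 4 were separated between Zeb1_200H and WT, against 33.2% of all miRNAs, and 0 of 4 between Zeb1_200M and Zeb1_200H, against 7.85%. Separation from WT in CPM was thus common among all miRNAs in this cohort. The fold changes below are scaled by TMM, which sets most miRNAs near 0. With CPM alone, the median log2 fold change of all miRNAs tested was 0.34 for Zeb1_200M and 0.29 for Zeb1_200H against WT for virgin mice, and 0.23 and 0.18 for mice of the breeding trial.

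The comparison of Zeb1_200M with WT asked whether the cluster differed when both alleles of *Zeb1* escape miR-200a/b. After TMM scaling, edgeR's quasi-likelihood F test called 0 of 4 members in the virgin cohort at a Benjamini-Hochberg adjusted p below 0.05, against 6.49% of the 678 miRNAs tested. At an unadjusted p below 0.05 it counted 2 members, miR-132-5p and miR-212-5p, against 22.1% of all miRNAs. DESeq2 called 1, miR-132-5p, among 86 of 645 miRNAs, and limma voom with sample quality weights called those 2, among 184 of 678, so both tools called more miRNAs in all than the 44 of 678 of edgeR.

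For miR-132-5p, the log2 fold change of Zeb1_200M against WT was 0.42 (95% interval 0.13 to 0.71, edgeR, Benjamini-Hochberg adjusted p = 0.0973), with CPM above WT in 4 of 4 libraries. For miR-212-5p it was 0.35 (0.04 to 0.67, edgeR, Benjamini-Hochberg adjusted p = 0.174), again with CPM above WT in 4 of 4 libraries. The 3p strands had negative log2 fold changes that were not called, at −0.32 for miR-132-3p (−0.79 to 0.14, edgeR, Benjamini-Hochberg adjusted p = 0.360) and −0.09 for miR-212-3p (−0.51 to 0.34, edgeR, Benjamini-Hochberg adjusted p = 0.822). MiR-132-3p had a CPM above the WT range in 2 of 4 Zeb1_200M libraries and below it in 1. MiR-212-3p had one above it in 4 of 4, and its log2 fold change was positive without a filter on low counts (0.0026) and with voom (0.16).

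Without WT replicate 1, the same test called 2 of 4 members, miR-132-5p (log2 fold change 0.41, edgeR, Benjamini-Hochberg adjusted p = 0.00445) and miR-212-5p (0.30, edgeR, Benjamini-Hochberg adjusted p = 0.0392). It then called 168 of 703 miRNAs in all, compared with 44 of 678 with that library. Over every alternative, the adjusted p of edgeR, DESeq2, or voom ran from 0.00445 to 0.542 for miR-132-5p and from 0.0348 to 0.566 for miR-212-5p. The log2 fold changes of the 3p strands without WT replicate 1 were −0.03 for miR-132-3p and 0.18 for miR-212-3p, not called (edgeR, Benjamini-Hochberg adjusted p = 0.859 and 0.198).

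The comparison of Zeb1_200H with WT, with 1 mutant allele, used the same WT libraries. EdgeR called 0 of 4 members, against 5.06% of the 672 miRNAs tested, and counted 2 at an unadjusted p below 0.05, the 5p strands, against 19.5%. DESeq2 called 0, among 66 of 755 miRNAs, and voom called those 2, among 152 of 672. The log2 fold change was 0.38 for miR-132-5p (95% interval 0.10 to 0.67, edgeR, Benjamini-Hochberg adjusted p = 0.145) and 0.31 for miR-212-5p (0.01 to 0.62, edgeR, Benjamini-Hochberg adjusted p = 0.2498), each with CPM above WT in 4 of 4 libraries. For miR-132-3p it was −0.44 (−0.95 to 0.07, edgeR, Benjamini-Hochberg adjusted p = 0.288), with a CPM below the WT range in 2 of 4 libraries and above it in 1. For miR-212-3p it was −0.11 (−0.53 to 0.31, edgeR, Benjamini-Hochberg adjusted p = 0.767), although its CPM lay above WT in 4 of 4 libraries, and voom gave 0.12.

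Leaving out WT replicate 1 left 1 of 4 members called in Zeb1_200H, miR-132-5p (log2 fold change 0.35, edgeR, Benjamini-Hochberg adjusted p = 0.0107), among 151 of 699 miRNAs, compared with 34 of 672. Over every alternative, the adjusted p ran from 0.00917 to 0.507 for miR-132-5p and from 0.0388 to 0.534 for miR-212-5p. Without that library, the values of the other members were 0.24 for miR-212-5p (edgeR, Benjamini-Hochberg adjusted p = 0.0620), 0.13 for miR-212-3p (0.255), and −0.16 for miR-132-3p (0.399).

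Between the virgin mutants, Zeb1_200M against Zeb1_200H, which asked whether the second mutant allele changed the cluster further, edgeR called 0 of 4 members, against 2.22% of the 675 miRNAs tested. No member reached an unadjusted p below 0.05 in edgeR (0 of 4, against 9.33% of all miRNAs), and DESeq2 and voom each called 0, among 20 of 1235 and 15 of 675 miRNAs. Log2 fold changes and their 95% intervals were 0.11 (−0.14 to 0.37) for miR-132-3p, 0.02 (−0.14 to 0.18) for miR-212-3p, 0.03 (−0.11 to 0.18) for miR-132-5p, and 0.04 (−0.12 to 0.20) for miR-212-5p.

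**Figure D2:**
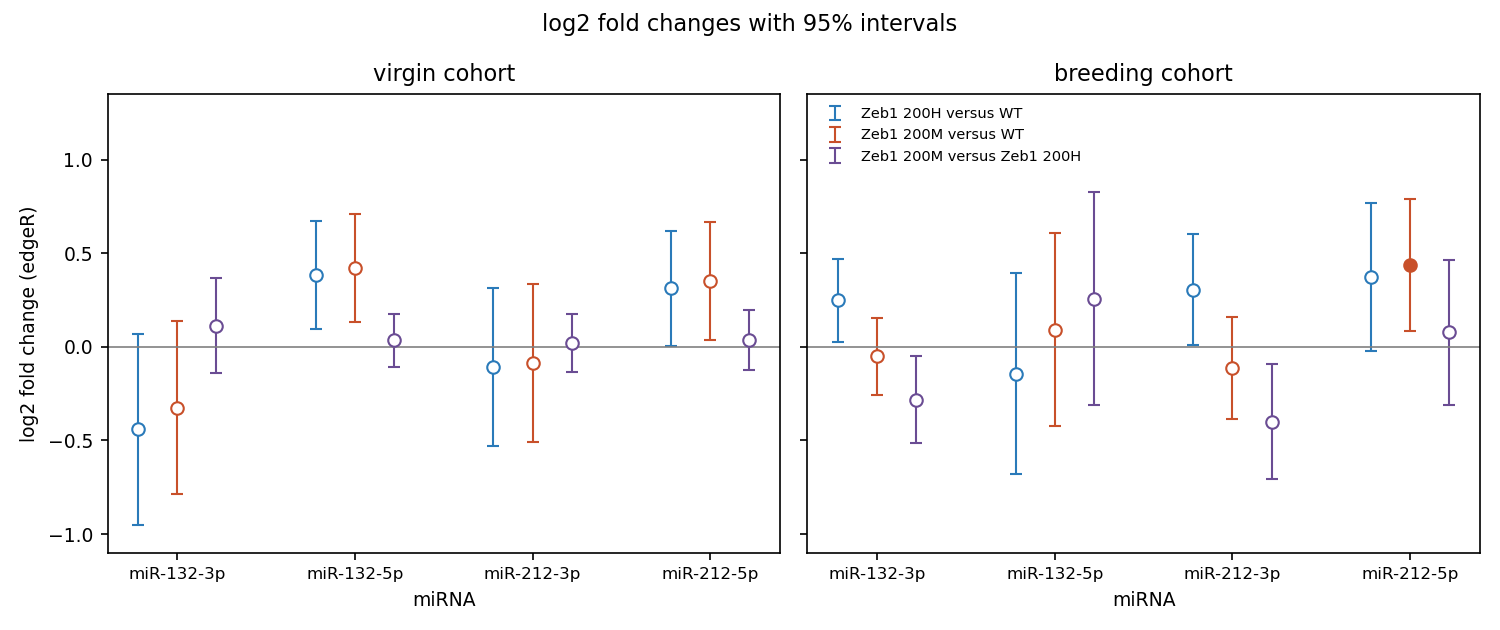
Log2 fold changes from edgeR (vertical axis) with 95% intervals for the 4 cluster miRNAs in 3 comparisons of each cohort, filled where the Benjamini-Hochberg adjusted p was below 0.05. The filled point is miR-212-5p in Zeb1_200M against WT of the breeding trial cohort, at 0.44.

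In the breeding trial cohort, miR-132-3p had 9331, 11041, 10203, and 11104 CPM in WT replicates 1 to 4. It had 13118, 15174, and 13600 CPM in Zeb1_200H replicates 1, 3, and 4, and 10038, 12465, and 12898 CPM in Zeb1_200M replicates 1 to 3. The Zeb1_200H libraries were the highest and overlapped neither of the other groups, while Zeb1_200M and WT overlapped. Means were 10420 ± 834 CPM in WT (SD, n = 4), 13964 ± 1075 CPM in Zeb1_200H (SD, n = 3), and 11800.3 ± 1541 CPM in Zeb1_200M (SD, n = 3).

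MiR-212-3p had the same order of genotypes. Its CPM was 1436, 1553, 1498, and 1931 in WT, 2327, 2065, and 2330.1 in Zeb1_200H, and 1529, 1771, and 1954 in Zeb1_200M. Every Zeb1_200H library again lay above those of the other genotypes, and WT and Zeb1_200M overlapped, with WT replicate 4 the highest WT library. Means were 1605 ± 222 CPM in WT (SD, n = 4), 2241 ± 152 CPM in Zeb1_200H (SD, n = 3), and 1751 ± 214 CPM in Zeb1_200M (SD, n = 3).

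MiR-132-5p rested on few reads at this depth, with counts of 24, 23, 15, and 41 in WT, 17, 13, and 28 in Zeb1_200H, and 14, 27, and 39 in Zeb1_200M. As levels, these were 155, 202, 178, and 214 CPM in WT, 155, 217, and 213 CPM in Zeb1_200H, and 159.7, 217, and 318 CPM in Zeb1_200M. All groups overlapped, and the Clopper-Pearson 95% interval of a library was wide, from 115 to 370.2 CPM for Zeb1_200H replicate 3 and from 226 to 434 CPM for Zeb1_200M replicate 3, the highest library. Means were 187 ± 26.0 CPM in WT (SD, n = 4), 195 ± 34.9 CPM in Zeb1_200H (SD, n = 3), and 232 ± 79.9 CPM in Zeb1_200M (SD, n = 3).

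MiR-212-5p had more reads than miR-132-5p in every library of this cohort, from 41 to 93. It had 375, 527, 488, and 381 CPM in WT, 527, 683, and 701 CPM in Zeb1_200H, and 605, 749, and 700.3 CPM in Zeb1_200M. Both mutants lay above WT, although Zeb1_200H replicate 1, at 527.3 CPM, barely exceeded WT replicate 2, at 526.6 CPM. Means were 443 ± 76.2 CPM in WT (SD, n = 4), 637 ± 95.4 CPM in Zeb1_200H (SD, n = 3), and 685 ± 73.4 CPM in Zeb1_200M (SD, n = 3). The ratio of miR-132-5p to miR-212-5p was 0.431 ± 0.0892 in WT (SD, n = 4), 0.305 ± 0.012 in Zeb1_200H (SD, n = 3), and 0.336 ± 0.103 in Zeb1_200M (SD, n = 3). Zeb1_200H lay below WT, and Zeb1_200M overlapped both. This ratio was not tested, and how often other pairs of miRNAs were separated was not computed.

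MiR-212-5p was the member that edgeR called between Zeb1_200M and WT of the breeding trial cohort. Its log2 fold change was 0.44 (standard error 0.170, 95% interval 0.09 to 0.79, edgeR, Benjamini-Hochberg adjusted p = 0.0470), with CPM above WT in 3 of 3 libraries. This made 1 of 4 members called, against 35.9% of the 276 miRNAs tested, and the CPM ranges of 1 of 4 members did not overlap, against 42.4% of all miRNAs. With 4 members, 1 is close to either share. Voom also called 1 member, among 107 of 276 miRNAs, and DESeq2 called 0, among 73 of 332 (log2 fold change 0.40, Benjamini-Hochberg adjusted p = 0.178).

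The miR-212-5p call lay near the threshold. It was lost with RLE size factors in place of TMM (edgeR, Benjamini-Hochberg adjusted p = 0.0506), without a filter on low counts (0.132), with a filter on WT CPM (0.0686), when any of 4 libraries was left out, and in 1 further fit given with the processing alternatives. These were WT replicate 1 (edgeR, Benjamini-Hochberg adjusted p = 0.154), WT replicate 4 (0.0775), Zeb1_200M replicate 2 (0.196), and Zeb1_200M replicate 3 (0.0953). Over every alternative, the log2 fold change stayed between 0.35 and 0.54 and the adjusted p between 0.0165 and 0.196.

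The other members were not called in Zeb1_200M. Log2 fold changes were −0.05 for miR-132-3p (95% interval −0.26 to 0.15, edgeR, Benjamini-Hochberg adjusted p = 0.748) and −0.11 for miR-212-3p (−0.38 to 0.16, edgeR, Benjamini-Hochberg adjusted p = 0.547). For miR-132-5p it was 0.09 (−0.42 to 0.61, edgeR, Benjamini-Hochberg adjusted p = 0.838). CPM lay above the WT range in 2 of 3 libraries for miR-132-3p and miR-132-5p, and in 1 of 3 for miR-212-3p. Each of these 3 log2 fold changes turned sign when 1 library was left out, to 0.05 for miR-132-3p without Zeb1_200M replicate 1, to 0.04 for miR-212-3p without WT replicate 4, and to −0.17 for miR-132-5p without Zeb1_200M replicate 3.

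In Zeb1_200H against WT of the breeding trial cohort, the CPM ranges of 3 of 4 members did not overlap, all but miR-132-5p, against 29.6% of the 267 miRNAs tested. EdgeR called 0 of 4 members, against 12.0% of all miRNAs, and counted 2 at an unadjusted p below 0.05, the 3p strands, against 27.3%. DESeq2 and voom each called 0, among 26 of 373 and 37 of 267 miRNAs. Log2 fold changes were 0.25 for miR-132-3p (95% interval 0.03 to 0.47, edgeR, Benjamini-Hochberg adjusted p = 0.133), 0.31 for miR-212-3p (0.01 to 0.60, edgeR, Benjamini-Hochberg adjusted p = 0.173), and 0.37 for miR-212-5p (−0.02 to 0.77, edgeR, Benjamini-Hochberg adjusted p = 0.196), each with CPM above WT in 3 of 3 libraries. For miR-132-5p it was −0.14 (−0.68 to 0.39, edgeR, Benjamini-Hochberg adjusted p = 0.745), with CPM above the WT range in 1 of 3 libraries and below it in 1, and it was 0.01 without Zeb1_200H replicate 1.

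Between Zeb1_200M and Zeb1_200H of the breeding trial cohort, both 3p strands had a lower CPM in each homozygous mouse, so the ranges of 2 of 4 members did not overlap, against 18.6% of the 274 miRNAs tested. EdgeR called 0 of 4 members, against 1.09% of all miRNAs, and counted 2 at an unadjusted p below 0.05, miR-132-3p and miR-212-3p, against 14.6%. DESeq2 and voom each called 0, among 3 of 668 and 5 of 274 miRNAs. The log2 fold change was −0.28 for miR-132-3p (95% interval −0.51 to −0.05, edgeR, Benjamini-Hochberg adjusted p = 0.209) and −0.40 for miR-212-3p (−0.71 to −0.09, edgeR, Benjamini-Hochberg adjusted p = 0.177), each lower in 3 of 3 libraries. The 5p strands had 0.26 for miR-132-5p (−0.31 to 0.83) and 0.08 for miR-212-5p (−0.31 to 0.47), and each turned sign when 1 library was left out.

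Whether a genotype difference itself differed between the cohorts was tested in edgeR as an interaction of genotype and cohort. It called 0 of 4 members for Zeb1_200M against WT (0% of 485 miRNAs), 0 for Zeb1_200H against WT (0% of 489), and 0 for Zeb1_200M against Zeb1_200H (0% of 618). At an unadjusted p below 0.05, edgeR counted 0, 1, and 2 members in these comparisons, against 5.57%, 4.70%, and 7.12% of all miRNAs, and no other tool was run for this test. In simulated data the interaction test missed more planted differences than the comparisons within a cohort, so its 0 calls do not show that the cohorts were alike. For Zeb1_200H against WT, the log2 fold change of miR-132-3p was higher in the breeding trial cohort by 0.69 (95% interval 0.14 to 1.24, edgeR, Benjamini-Hochberg adjusted p = 0.645), or by 0.41 without WT replicate 1 of the virgin cohort (edgeR, Benjamini-Hochberg adjusted p = 0.648). The difference was 0.42 for miR-212-3p (−0.13 to 0.96), −0.52 for miR-132-5p (−1.07 to 0.03), and 0.06 for miR-212-5p (−0.42 to 0.53), or 0.16, −0.51, and 0.13 without that library.

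For Zeb1_200M against Zeb1_200H, the breeding trial value minus the virgin value was −0.44 for miR-132-3p (95% interval −0.78 to −0.09, edgeR, Benjamini-Hochberg adjusted p = 0.519) and −0.47 for miR-212-3p (−0.78 to −0.17, edgeR, Benjamini-Hochberg adjusted p = 0.437). It was 0.17 for miR-132-5p (−0.35 to 0.68) and −0.01 for miR-212-5p (−0.37 to 0.34). For Zeb1_200M against WT it was 0.19 for miR-132-3p (−0.32 to 0.70), −0.11 for miR-212-3p (−0.63 to 0.42), −0.42 for miR-132-5p (−1.001 to 0.16), and −0.02 for miR-212-5p (−0.48 to 0.44). Leaving out WT replicate 1 of the virgin cohort gave −0.0571, −0.32, −0.35, and 0.10 in the same order, so that miR-132-3p and miR-212-5p turned sign. Thus the miR-212-5p call in Zeb1_200M of the breeding trial cohort was not shown to differ from its uncalled value in the virgin cohort.

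The ratio of the 3p to the 5p count in a library does not depend on scaling between libraries. In virgin WT pituitary, this arm ratio of miR-132 was 44.6, 24.1, and 26.9 in replicates 1, 2, and 4. It was 14.8, 20.4, 19.5, and 16.4 in Zeb1_200H, and 15.7, 20.5, 20.6, and 18.7 in Zeb1_200M. WT replicate 1 had the highest ratio, and the WT libraries lay above all mutant libraries. The share of all hairpins whose arm ratios were separated in this way was not computed in either cohort. For miR-212, the ratio was 8.10 in WT replicate 1, and 4.51 and 4.44 in WT replicates 2 and 4. It was 4.03, 4.28, 4.38, and 3.94 in Zeb1_200H and 3.83, 4.05, 4.52, and 4.03 in Zeb1_200M, where replicate 3 overlapped WT.

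Arm ratios were compared with limma over all hairpins with both strands counted, and of the 2 cluster hairpins 0 were called in Zeb1_200M against WT of the virgin cohort, where the background was 0% of 192 hairpins. Limma counted 1 at an unadjusted p below 0.05, miR-132, against 5.21% of all hairpins, and no other tool was run on arm ratios. The log2 ratio of miR-132 differed by −0.71 (95% interval −1.34 to −0.08, limma, Benjamini-Hochberg adjusted p = 0.628) and that of miR-212 by −0.41 (−1.03 to 0.21, limma, Benjamini-Hochberg adjusted p = 0.628). The values without WT replicate 1 were −0.44 for miR-132 (limma, Benjamini-Hochberg adjusted p = 0.251) and −0.13 for miR-212 (0.672).

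In Zeb1_200H against WT of the virgin cohort, limma called 0 of the 2 hairpins, against 0% of 189, and counted 1, miR-132, at an unadjusted p below 0.05, against 4.76%. The difference was −0.80 for miR-132 (95% interval −1.43 to −0.17, limma, Benjamini-Hochberg adjusted p = 0.543), lower in 4 of 4 libraries, and −0.39 for miR-212 (−1.002 to 0.22, limma, Benjamini-Hochberg adjusted p = 0.543). The miR-132 ratio was called without WT replicate 1, with −0.53 (limma, Benjamini-Hochberg adjusted p = 0.0294), as 1 of 2 hairpins called among 193. Its adjusted p over every alternative ran from 0.0294 to 0.698. The value of miR-212 was −0.11 without that library (limma, Benjamini-Hochberg adjusted p = 0.671). The median difference of all hairpins was 0.10 in Zeb1_200M and 0.08 in Zeb1_200H, each against WT.

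Between the virgin mutants, limma called 0 of the 2 arm ratios (0 at an unadjusted p below 0.05, against 4.62%), against 0% of 195 hairpins. Zeb1_200M minus Zeb1_200H was 0.09 (95% interval −0.17 to 0.35) for miR-132 and −0.02 (−0.17 to 0.14) for miR-212.

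**Figure D3:**
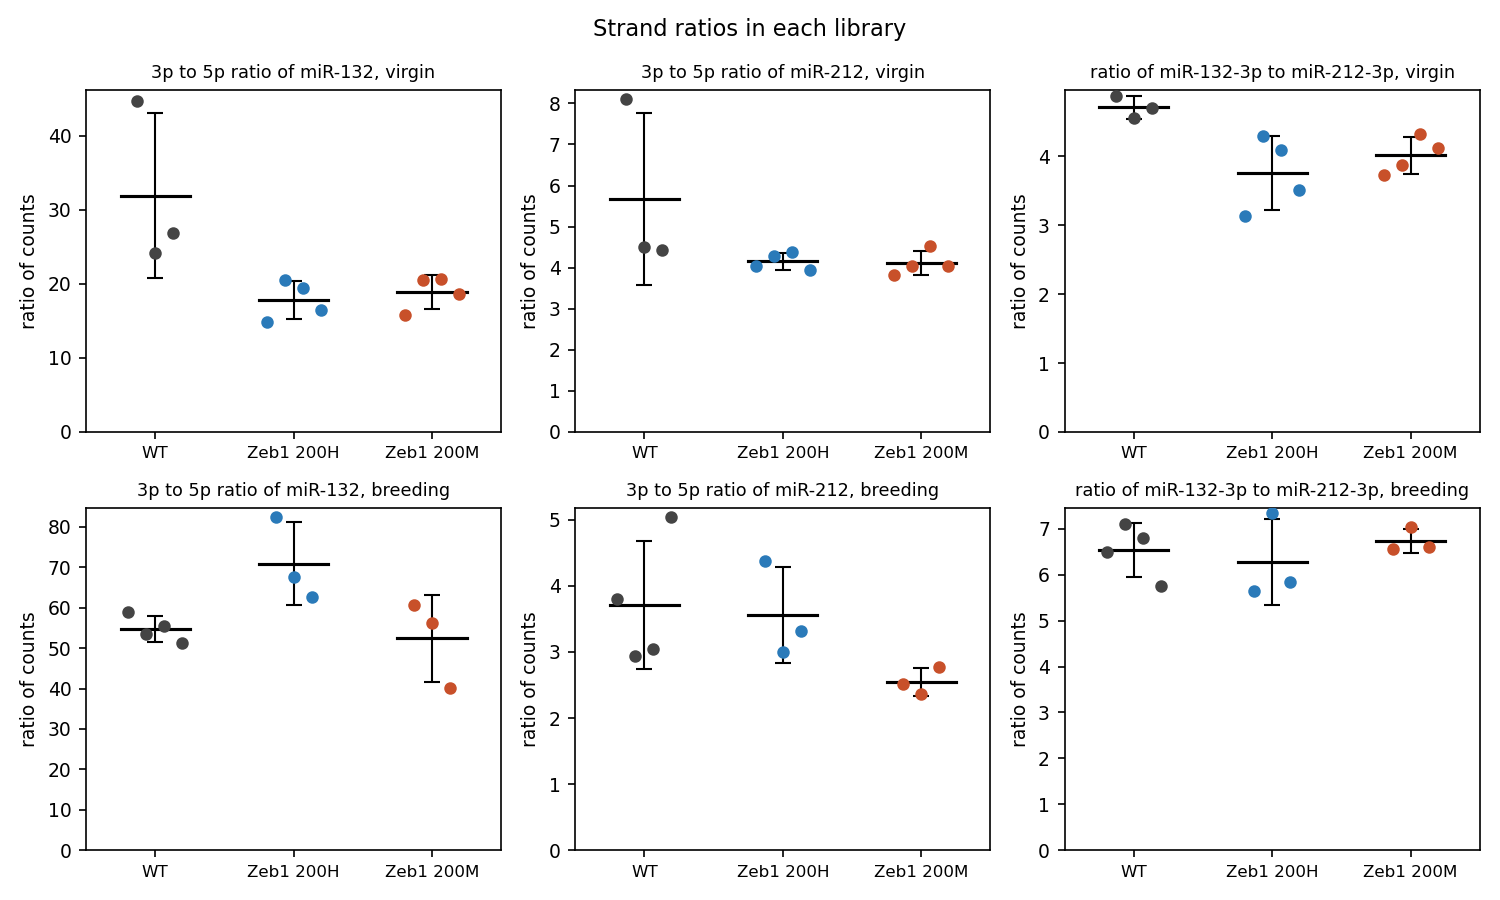
Ratio of counts (vertical axis, starting at 0) in each library (points) for the 3p and 5p strands of miR-132 and of miR-212 and for miR-132-3p and miR-212-3p, with the group mean (line) and SD (bars). In the virgin cohort, WT replicate 1 is highest in both arm ratios, at 44.6 and 8.10.

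In the breeding trial cohort, the arm ratio of miR-132 was 58.9, 53.6, 55.4, and 51.3 in WT, 82.5, 67.5, and 62.7 in Zeb1_200H, and 60.7, 56.3, and 40.1 in Zeb1_200M. Zeb1_200H lay above the other groups, and Zeb1_200M overlapped WT. The arm ratio of miR-212 was 3.80, 2.93, 3.05, and 5.04 in WT, 4.38, 3, and 3.31 in Zeb1_200H, and 2.51, 2.36, and 2.78 in Zeb1_200M. Here Zeb1_200M was the lowest group and overlapped neither of the others.

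Limma called 0 of the 2 hairpins in Zeb1_200M against WT of the breeding trial cohort, against 4.26% of 47 hairpins, and counted 1, miR-212, at an unadjusted p below 0.05, against 21.3%. Its difference was −0.51 (95% interval −0.95 to −0.07, limma, Benjamini-Hochberg adjusted p = 0.155), lower in 3 of 3 libraries, and it was called without WT replicate 2 (−0.61, limma, Benjamini-Hochberg adjusted p = 0.0463, over all alternatives 0.0463 to 0.462), where limma called 7 of 46 hairpins. For miR-132 it was −0.09 (−0.63 to 0.46, limma, Benjamini-Hochberg adjusted p = 0.822), and 0.10 without Zeb1_200M replicate 3.

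In Zeb1_200H against WT, limma called 0 of the 2 hairpins (0 at an unadjusted p below 0.05, against 10.4%), against 2.08% of 48. The difference was 0.36 (95% interval −0.30 to 1.03) for miR-132 and −0.04 (−0.49 to 0.41) for miR-212. Between Zeb1_200M and Zeb1_200H, limma called 0 of the 2, against 0% of 48, and counted 1, miR-212, at an unadjusted p below 0.05, against 14.6%. It differed by −0.47 (−0.88 to −0.05, limma, Benjamini-Hochberg adjusted p = 0.304), lower in 3 of 3 libraries, and miR-132 by −0.45 (−1.03 to 0.13, limma, Benjamini-Hochberg adjusted p = 0.435).

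Within the seed family, the ratio of miR-132-3p to miR-212-3p was described without a test. In virgin WT it was 4.88, 4.55, and 4.70, compared with 3.13, 4.29, 4.09, and 3.51 in Zeb1_200H and 3.72, 3.88, 4.33, and 4.12 in Zeb1_200M. The WT libraries lay above every mutant library, and how often other pairs of miRNAs were separated in this way was not computed. Means were 4.71 ± 0.162 in WT (SD, n = 3), 3.76 ± 0.532 in Zeb1_200H (SD, n = 4), and 4.01 ± 0.266 in Zeb1_200M (SD, n = 4), and the WT mean was 4.63 without replicate 1. In the breeding trial cohort all groups overlapped, at 6.50, 7.11, 6.81, and 5.75 in WT, 5.64, 7.35, and 5.84 in Zeb1_200H, and 6.57, 7.04, and 6.60 in Zeb1_200M.

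Summed over the 4 members, the cluster reached 7883 ± 285 CPM in virgin WT (SD, n = 3), 8196 ± 1279 CPM in Zeb1_200H (SD, n = 4), and 9051 ± 916 CPM in Zeb1_200M (SD, n = 4), with overlapping libraries and a WT mean of 7894 CPM without replicate 1. In the breeding trial cohort it reached 12654 ± 1052 CPM in WT (SD, n = 4), 17037 ± 1020 CPM in Zeb1_200H (SD, n = 3), and 14468 ± 1880 CPM in Zeb1_200M (SD, n = 3), with Zeb1_200H above the other groups. With all libraries, the order of the means depended on scaling. TMM-scaled sums were 9727, 7749, and 8288 CPM in virgin WT, Zeb1_200H, and Zeb1_200M, with WT the highest mean. They were 13731, 16414, and 13469 CPM in the breeding trial cohort, in the same order of genotypes, with Zeb1_200M below WT. The virgin WT value includes WT replicate 1, which its TMM factor of 0.616 scales up most. No TMM-scaled sum was computed without that library. MiR-132-3p supplied 77.7%, 71.9%, and 73.3% of the sum in virgin WT, Zeb1_200H, and Zeb1_200M, and 82.4%, 81.9%, and 81.6% in the breeding trial cohort.

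The miRNAs whose TMM-scaled CPM ordered the libraries most like miR-132-3p were found by Spearman's rho among miRNAs with a mean of at least 50 counts, as a description over libraries that share their genotypes. Over the 11 virgin libraries, with 500 miRNAs compared, the first 5 were miR-376b-5p (0.82), miR-412-3p (0.81), miR-501-3p (0.78), miR-29b-1-5p (0.72), and miR-376a-5p (0.72), or 0.76, 0.75, 0.71, 0.62, and 0.62 without WT replicate 1. MiR-212-3p was 40th, at 0.46, or 0.28 without WT replicate 1. MiR-132-5p was 333rd, at −0.20 (0.067 without that library), and miR-212-5p was 409th, at −0.35 (−0.14). Over the 10 breeding trial libraries, with 160 compared, miR-212-3p was 1st, at 0.90, followed by miR-455-3p (0.82), miR-138-5p (0.70), miR-146a-5p (0.55), and miR-181c-5p (0.53), and miR-212-5p was 19th, at 0.35.

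The cluster was set beside lists of other miRNAs. Counts called in them are to be read against those of all miRNAs, of which edgeR called 2.65% higher and 3.83% lower in Zeb1_200M and 1.64% and 3.42% in Zeb1_200H against virgin WT, and 0.741% and 1.48% between the virgin mutants. The shares in the breeding trial cohort were 20.3% and 15.6%, 4.87% and 7.12%, and 0.365% and 0.730%. Without WT replicate 1, edgeR called 168 of 703 miRNAs in virgin Zeb1_200M and 151 of 699 in virgin Zeb1_200H.

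None of 5 activity-regulated miRNAs (miR-134-5p, miR-219a-5p, miR-184-3p, miR-379-5p, and miR-329-3p), some of which are, like miR-132, induced by neuronal activity, was called by edgeR in any of the 6 comparisons. At an unadjusted p below 0.05, edgeR counted 2, 0, and 1 in Zeb1_200M against WT, Zeb1_200H against WT, and Zeb1_200M against Zeb1_200H of the virgin cohort, and 1, 0, and 1 in the breeding trial cohort. The shares of all miRNAs were 22.1%, 19.5%, and 9.33%, and 44.6%, 27.3%, and 14.6%, in the same order. Median log2 fold changes were −0.36, −0.44, and −0.14, and 0.07, 0.22, and −0.15, in the same order, where the medians of all miRNAs tested lay near 0. The virgin medians against WT rested on WT replicate 1 and were −0.0545 in Zeb1_200M and −0.023 in Zeb1_200H without it. EdgeR then called 1 of the 5 lower in Zeb1_200M, miR-184-3p, among the 168 of 703 miRNAs called, and 0 in Zeb1_200H. The most abundant of the list was miR-379-5p, with means of 2448 CPM (virgin) and 3094 CPM (breeding trial).

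Of 6 miRNAs linked to gonadotropins, edgeR called 2 lower in each virgin comparison, miR-200b-3p and miR-429-3p, both of the miR-200 family on which the mouse model is built. In Zeb1_200M against WT of the breeding trial cohort it called 3 lower, miR-200b-3p, miR-429-3p, and miR-7a-5p (log2 fold change −0.45), and 1 higher, miR-125b-5p (0.34). It called the first 2 lower in Zeb1_200H against WT and 0 between the mutants. There, 2 had an unadjusted p below 0.05, against 14.6% of all miRNAs. Without WT replicate 1 of the virgin cohort, 2 were called lower against WT in either mutant. The most abundant was miR-7a-5p, which is enriched in endocrine pituitary cells, at means of 124175 and 117402 CPM in the virgin and breeding trial cohorts.

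Markers of cell types that a dissected pituitary can hold were read in the same libraries, and no matched marker was without counts. The 9 neuronal markers summed to 7419, 10446, and 10832 CPM in virgin WT replicates 1, 2, and 4, to 14126.5, 14708, 14790.1, and 15689 CPM in Zeb1_200H, and to 19132, 16881, 18612, and 15062 CPM in Zeb1_200M. The sums in the breeding trial cohort were 13168, 13034, 11226, and 13723 CPM in WT, 18709, 15624, and 18946 CPM in Zeb1_200H, and 23943, 23319, and 23956 CPM in Zeb1_200M. WT was the lowest group in both cohorts, and the groups overlapped only between the virgin mutants. Their part in the values of the cluster, which is also expressed in neurons, was not tested.

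Of 10 neuronal entries tested in the virgin cohort, where miR-124-3p is listed as 2 sequences, edgeR called 2 higher and 0 lower in every comparison. They were miR-124-3p.1 (log2 fold change 2.26 in Zeb1_200M and 1.71 in Zeb1_200H against WT, and 0.55 between them) and miR-124-3p.2 (1.98, 1.38, and 0.60). In Zeb1_200M of the breeding trial cohort, edgeR called 3 of 8 higher, miR-124-3p (2.47), miR-9-5p (0.88), and miR-137-3p (0.44), against 20.3% of all miRNAs, and 1 lower, miR-129-5p (−0.38), against 15.6%. It called miR-124-3p alone in Zeb1_200H against WT (1.64) and in Zeb1_200M against Zeb1_200H (0.85). Without WT replicate 1 of the virgin cohort, 4 were called higher in either mutant, these 2 with miR-9-5p and miR-9-3p, and 1 lower, miR-129-5p in Zeb1_200M and miR-218-5p in Zeb1_200H. Over all genotypes the most abundant neuronal marker was miR-153-3p, at means of 4149 CPM (virgin) and 4281 CPM (breeding trial), and it was not called. The most abundant marker differed between genotypes, as miR-124-3p.1 exceeded miR-153-3p in virgin Zeb1_200M (4942 against 4379 CPM), and miR-124-3p exceeded it in breeding trial Zeb1_200M (8004 against 4981 CPM) and Zeb1_200H (4278 against 4257 CPM).

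The 5 endocrine pituitary markers, miR-7a-5p, miR-7b-5p, miR-375-3p, miR-141-3p, and miR-200c-3p, summed to 421254, 302567, and 305960.3 CPM in virgin WT replicates 1, 2, and 4, to 272908, 260761, 286648, and 272481 CPM in Zeb1_200H, and to 235518, 260464, 239123, and 283788 CPM in Zeb1_200M. They summed in the breeding trial cohort to 346906, 323424, 352705, and 329549 CPM in WT, 297774, 278695, and 272182 CPM in Zeb1_200H, and 256921, 264458, and 250208 CPM in Zeb1_200M. WT was the highest group in both cohorts. EdgeR called 2 of 5 lower in each virgin comparison, miR-141-3p and miR-200c-3p, also of the miR-200 family, or 3 against WT without WT replicate 1, with miR-375-3p. In the breeding trial cohort, 4 of 5 were called lower in Zeb1_200M against WT (these 3 and miR-7a-5p), 3 in Zeb1_200H against WT (miR-375-3p, miR-141-3p, and miR-200c-3p), and 2 between the mutants (miR-141-3p and miR-200c-3p). Their part in the values of the cluster was not tested.

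Of 7 blood markers, 4 were matched by name in virgin libraries and 6 in breeding trial libraries. Unmatched markers may be listed under variant names, which the summed levels would leave out. EdgeR called 0 of 4 in the virgin comparisons. At an unadjusted p below 0.05 it counted 2, 2, and 0, against 22.1%, 19.5%, and 9.33% of all miRNAs. Without WT replicate 1 it called 1 higher in Zeb1_200M, miR-150-5p, and 2 in Zeb1_200H, miR-150-5p and miR-223-3p. In Zeb1_200M against WT of the breeding trial cohort, edgeR called 3 of 6 higher, against 20.3% of all miRNAs. They were miR-142-3p (log2 fold change 0.94), miR-223-3p (1.06), and miR-144-3p (0.57). EdgeR called 0 in Zeb1_200H against WT and between the mutants. At an unadjusted p below 0.05, 2 and 1 were counted there, against 27.3% and 14.6% of all miRNAs. The most abundant was miR-451a of erythroid cells, at means of 7959 and 6781 CPM. The summed level was 4998, 7289, and 9119 CPM in virgin WT, 8033, 18158, 10499, and 9503 CPM in Zeb1_200H, and 9549, 8990, 8993, and 10609.7 CPM in Zeb1_200M. It was 6581, 9233, 6326, and 6914 CPM in breeding trial WT, 7827, 9627, and 8513 CPM in Zeb1_200H, and 8840.5, 9324, and 12646 CPM in Zeb1_200M.

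Of 4 vascular and smooth muscle markers, 1 was matched by name in both cohorts, and the others may be listed under variant names. The matched marker was miR-143-3p, at means of 1503 and 1993 CPM. It had 1222, 1109, and 1264 CPM in virgin WT, 2008, 1468, 591, and 1970.3 CPM in Zeb1_200H, and 2474, 2234, 26.1, and 2172 CPM in Zeb1_200M, where replicate 3 was the lowest library. Breeding trial libraries had 1592, 1299, 1819, and 1555 CPM in WT, 2391, 1849, and 2208 CPM in Zeb1_200H, and 2487, 2295, and 2435 CPM in Zeb1_200M, with both mutants above WT. In that cohort, 33.3% of all miRNAs lay above WT in every Zeb1_200M library and 23.6% in every Zeb1_200H library. EdgeR called miR-143-3p higher in Zeb1_200M against WT of the breeding trial cohort (log2 fold change 0.39) and in no other comparison. The part of blood and vascular markers in the values of the cluster was not tested.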

How the data were processed

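Adapters were trimmed (cutadapt) and low-quality reads discarded by the authors, who assigned a read where its 5′ end equaled that of a miRNA in a TargetScanMouse (virgin) or miRBase (breeding trial) list. The deposited tables hold raw counts for each miRNA and library, which were used here. The tables' 42 other columns of per-sample values and the authors' fold changes and p values were not used here. Members and lists were chosen with earlier results of these data known. Members were named in every library, and other miRNAs where called, most abundant, or most alike. Counts were compared within a cohort with the quasi-likelihood F test of edgeR 4.0.16 in R 4.3.3 (TMM, minimum count 10, minimum total 15), and all 4 members passed this filter in each comparison. Arm ratios were compared with limma 3.58.1 (pseudocount 0.5, a mean of at least 10 counts in each strand). Benjamini-Hochberg adjustment covered all miRNAs or hairpins tested, with a threshold of 0.05. DESeq2 1.42.0, voom, other scaling and filters, and each library left out were alternatives. The methods were tested on simulated data, where the limit first set on the median error of log2 fold changes was exceeded and then loosened, with no method changed. Likeness and marker lists without WT replicate 1 were added after the data were seen.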

Additional observations from a re-analysis of the deposited data

How the results depend on the processing

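Of the single values of members, arm ratios, and cohort differences recomputed under another scaling, filter, tool, or fit, 241 kept their direction and side of the threshold, 8 passed it, 5 lost it, and 7 reversed. With 1 library left out, 362 kept both, 5 passed, 4 lost it, and 49 reversed. All alternatives ran, and the cause of each move was not tested. In the virgin cohort, the cluster miRNAs called in Zeb1_200M against WT numbered 1 with DESeq2, 1 with a common fit of 3 genotypes (among 90 of 704 miRNAs), and 2 with voom, and in Zeb1_200H against WT 1 with the common fit (among 67 of 704) and 2 with voom. MiR-212-3p turned positive in Zeb1_200M without a filter on low counts (0.0026) and with voom (0.16), and in Zeb1_200H with voom (0.12). In Zeb1_200M against WT of the breeding trial cohort, 0 members were called with RLE size factors, DESeq2, no filter, a WT CPM filter, or the replicate block. With TMM-scaled CPM, the summed level in WT was 9727 CPM (virgin) and 13731 CPM (breeding trial), against 7749 and 16414 CPM in Zeb1_200H and 8288 and 13469 CPM in Zeb1_200M. With all libraries, WT thus went from lowest to highest in the virgin cohort and from below to above Zeb1_200M in the breeding trial cohort. The virgin WT value includes WT replicate 1, with its TMM factor of 0.616, and was not recomputed without it. The breeding trial minus virgin value of miR-212-5p reversed to 0.0504 (RLE) in Zeb1_200M against WT, to −0.0179 (no filter) in Zeb1_200H against WT, and to 0.0295 (RLE) and 0.0223 (no filter) between the mutants.

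Same-numbered libraries did not correlate above 0.1 in every pair of any comparison (0.145, 0.0477, and 0.180 in Zeb1_200H against WT of the breeding trial cohort), and in none did every library correlate best with its own number, so the numbers were not taken as pairs. With the replicate block, edgeR called 1 member there, among 47 of 267 miRNAs compared with 32 of 267 without it, miR-212-5p (log2 fold change 0.46, Benjamini-Hochberg adjusted p = 0.0448, 0.0448 to 0.485 over all alternatives), and 0 in each other comparison. The call of miR-212-5p in Zeb1_200M against WT of that cohort was absent with the replicate block (0.35, Benjamini-Hochberg adjusted p = 0.0898).

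With each library left out in turn, the virgin calls ranged from 0 to 2 members in Zeb1_200M and 0 to 1 in Zeb1_200H against WT, with miR-212-3p from −0.20 to 0.18 and from −0.22 to 0.13, and arm ratios called in Zeb1_200H from 0 to 1. Between the virgin mutants, miR-212-3p ranged from −0.0066 to 0.0637 and the arm ratio of miR-212 from −0.0657 to 0.0143. In Zeb1_200M against WT of the breeding trial cohort, calls ranged from 0 to 1 members and from 0 to 1 arm ratios, miR-132-3p from −0.10 to 0.0527, miR-132-5p from −0.17 to 0.27, miR-212-3p from −0.17 to 0.038, and the arm ratio of miR-132 from −0.20 to 0.10. In Zeb1_200H against WT, miR-132-5p ranged from −0.25 to 0.0148 and the arm ratio of miR-212 from −0.20 to 0.12. Between those mutants, miR-132-5p ranged from −0.0421 to 0.43 and miR-212-5p from −0.0385 to 0.19. Breeding trial minus virgin values in Zeb1_200M against WT ranged from −0.0571 to 0.41 (miR-132-3p), −0.32 to 0.10 (miR-212-3p), and −0.0877 to 0.17 (miR-212-5p), in Zeb1_200H against WT from −0.0659 to 0.13 (miR-212-5p), and between the mutants from −0.12 to 0.34 (miR-132-5p) and −0.14 to 0.11 (miR-212-5p). Spearman's rho of miR-132-5p with miR-132-3p was 0.067 without WT replicate 1.

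The limits are the group sizes of 3 or 4 mice, the counts of 13 to 93 reads for the 5p strands in the breeding trial cohort, and the place of WT replicate 1 among 3 virgin WT libraries.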
